A study of Oryza sativa with 4 samples.

Results

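The YABBY genes code for a small family of plant transcription factors, and 7 of the 8 rice genes of the family were measured here in the flag leaf collar of the lc1 mutant and of the wild type. The members were all probe sets whose single annotated gene carries YAB1 to YAB7 or DL as its symbol or as a synonym, with the prefix Os and letter case ignored. The rule gave 8 genes, and 8 of the 22436 probe sets with 1 annotated gene belonged to 7 of them: 2 to YAB1 and 1 each to YAB2, YAB4, YAB5, YAB6, YAB7 and DL. No probe set was annotated to YAB3, which was not analysed here. RNA came from the lamina joint of the flag leaf, where the blade bends away from the sheath. Affymetrix Rice Genome arrays were used, 2 for the lc1 mutant and 2 for the wild type, described by the labels as biological replicates. LC1 is known from the literature as the GH3.1 locus, while the labels name neither the gene, the kind of allele, the parent cultivar nor the age of the plants.

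YABBY proteins combine a zinc finger with a DNA-binding YABBY domain. In Arabidopsis several of them act in the abaxial, or lower, side of lateral organs and support the outgrowth of the blade, whereas in grasses their transcripts are not always limited to that side. In rice, DL (DROOPING LEAF) is required for the midrib of the leaf and for the identity of the carpel, and it belongs to the CRABS CLAW class. YAB1, YAB2 and YAB6 are placed in the class named after Arabidopsis YAB2, YAB4 and YAB5 in the FILAMENTOUS FLOWER class, and YAB7 in the INNER NO OUTER class. Rice YABBY genes have been numbered in more than one way. The gene called YAB4 here (LOC4330130) is also listed as OsYAB7, YAB5 (LOC4336518) as OsYAB3, and YAB6 (LOC4352818) as OsYAB5, so the gene identifier is the safer name.

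The deposited signals were not at one level, with medians of 16.1 and 13.0 in lc1 and 11.8 and 12.1 in the wild type, so each array was divided by a factor (1.20 and 0.993 in lc1, 0.911 and 0.963 in the wild type) that put the median deviation of the tested probe sets at 0. All signals below are scaled in this way unless called deposited. The floor of an array, a measure of background, was the 95th percentile of 23 control probe sets without a rice target, and stood at 11.5 and 13.0 in lc1 and 9.90 and 12.3 in the wild type. RNA quality was gauged from the rice Gapdh control, whose 5′ signal divided by its 3′ signal was 0.246 and 0.138 in lc1 and 0.164 and 0.236 in the wild type, so it varied within each genotype more than between them. On all 4 arrays the 5′ signal was thus at most 0.246 of the 3′ signal, so the 3′ end read far brighter throughout. GH3.1, the gene behind the mutant's name, read 460 and 421 in lc1 against 1.10 and 9.35 in wild-type collars, where neither array reached the floor. It was at least 39.8-fold higher in lc1, with a limma adjusted p of 0.0502 over 34355 probe sets. The collar markers LG1, LG2 and BU1 were above the floor on all 4 arrays.

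In the collar of both genotypes, YAB2, YAB6 and the first of the YAB1 probe sets stood far above the floor, while the other 5 YABBY probe sets, the second of YAB1 among them, were near it or under it. YAB6 signals in lc1 averaged 1.46-fold below those in the wild type, and YAB2 signals averaged 1.27-fold above, each over 2 arrays per genotype and with an SE of 0.24 on the log2 scale. None of the 6 tested YABBY probe sets passed limma with Benjamini-Hochberg adjustment over all tested probe sets, in either direction. GH3.1 did not pass either (limma adjusted p = 0.0502), so with 2 arrays per genotype not passing does not show an unchanged level. Of all tested probe sets 0.0262% passed, 9 in number. That number depended on the setting, with 644 under the replicate block, and 0 YABBY probe sets among them. The block leaves fewer residual degrees of freedom than the main fit, and the cause of its larger count was not tested. The p-values of the 2 fits differed at equal log2 differences. The unadjusted limma p of GH3.1 was 1.61e-05 in the main fit and 9.4e-54 under the block, and that of YAB6 was 0.0494 and 0.126. The 2 counts are therefore not alike. At an unadjusted limma p under 0.05 there was 1 YABBY probe set, that of YAB6, against 8.03% of all tested probe sets.

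**Figure D1:**
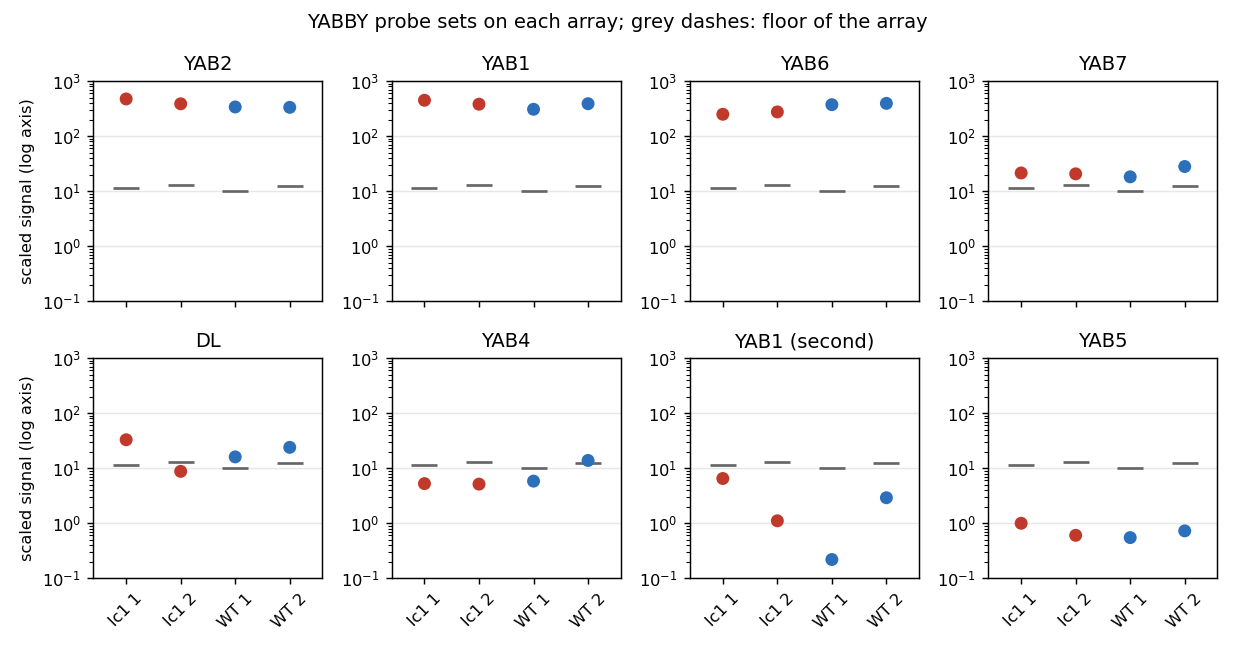
Scaled signal (log axis) of the 8 YABBY probe sets on the 2 lc1 arrays (red) and the 2 wild-type arrays (blue), with the floor of each array as a grey dash. YAB2, the first YAB1 probe set and YAB6 lie between 249 and 473 on every array, and the second YAB1 probe set and YAB5 lie under the floor on all 4.

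YAB6 (LOC4352818) had signals of 249 and 275 in lc1, against 372 and 393 in the wild type. Both lc1 arrays lay below both wild-type arrays, and the gap between genotypes exceeded the gap between arrays of 1 genotype. The means were 262 ± 18.0 in lc1 and 383 ± 14.6 in the wild type (SD, n = 2). The log2 difference, lc1 minus wild type, was -0.55 ± 0.24 (limma SE), with a 95% interval from -1.09 to -0.0017, an unadjusted limma p of 0.0494 and an adjusted p of 0.620. The deposited signals of 299.1 and 272.8 in lc1 and 339.1 and 378.4 in the wild type were apart in the same direction, but the difference was then -0.33 with an unadjusted p of 0.216. Over the 16 alternative settings the unadjusted p of YAB6 ran from 0.0209 to 0.216 and was under 0.05 in 5. Among all tested probe sets 20.0% had both lc1 arrays below both wild-type arrays, and 3.89% were lower with an unadjusted p under 0.05.

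YAB2 (LOC4333584) went the other way. Its signals were 473 and 386 in lc1, against 338 and 333 in the wild type, so both lc1 arrays were above both wild-type arrays and lc1 array 1 stood highest. The log2 difference was 0.35 ± 0.24, with a 95% interval from -0.20 to 0.90 and an adjusted limma p of 0.730. Both lc1 arrays were above both wild-type arrays in 19.7% of all tested probe sets.

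YAB1 (LOC4342449), known in rice from work on the feedback control of gibberellin synthesis, had 1 probe set well above the floor. That first probe set read 448 and 380 in lc1, against 307 and 388 in the wild type. The genotypes overlapped after scaling, since wild-type array 2 lay above lc1 array 2, and the log2 difference was 0.26 ± 0.25 with a 95% interval from -0.31 to 0.83. In the deposited signals, at 537.4 and 377.2 in lc1 and 279.5 and 373.1 in the wild type, the genotypes did not overlap. This probe set carries the suffix _s_at, which Affymetrix gives where probes match more than a single transcript. The second YAB1 probe set read 6.50 and 1.11 in lc1 and 0.220 and 2.91 in the wild type, all 4 under the floor, so the gene's probe sets disagreed on whether it was detected, and only the first was tested.

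**Figure D2:**
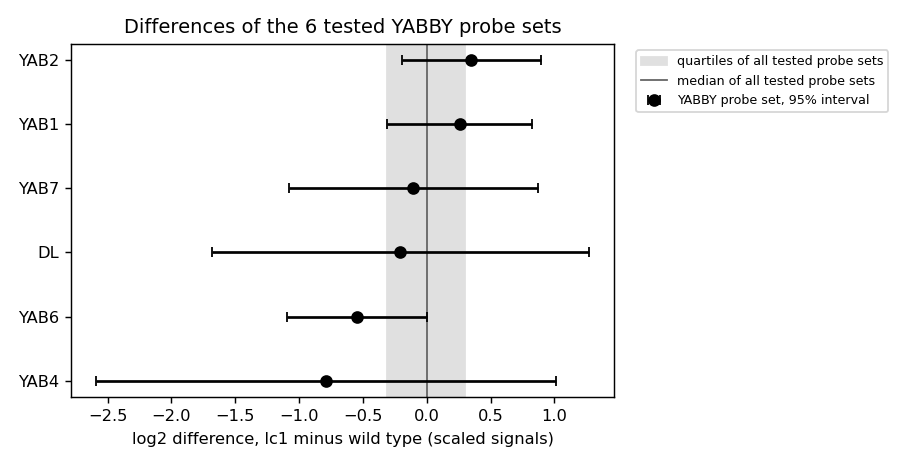
Log2 difference, lc1 minus wild type, of the 6 tested YABBY probe sets with 95% limma intervals, over the quartiles (-0.31 to 0.30) and the median of all 34355 tested probe sets. The interval of YAB6 ends at -0.0017 and those of the other 5 span 0; the YAB4 signals were under the floor on 3 of 4 arrays.

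YAB6 could also be set against its class mates within single arrays, where no scaling enters. The deposited YAB6 signal divided by that of YAB2 was 0.527 and 0.712 in lc1, against 1.10 and 1.18 in the wild type. This ratio was 1.86-fold lower in lc1, and the genotypes did not overlap. Divided by the first YAB1 probe set, YAB6 gave 0.557 and 0.723 in lc1 and 1.21 and 1.01 in the wild type, again apart, and 1.75-fold lower in lc1. The ratio of YAB2 to YAB1 overlapped, at 1.06 and 1.02 in lc1 and 1.10 and 0.859 in the wild type. The exact 2-sided permutation p was 0.333 for each of the first 2 ratios, which is the smallest that 2 arrays against 2 allow, and 1 for the third. The 3 ratios were formed after the signals had been seen and restate the differences above without the scaling, so they are a description and no further evidence. They give no relative abundance of the transcripts, since probe sets differ in how brightly they hybridise.

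**Figure D3:**
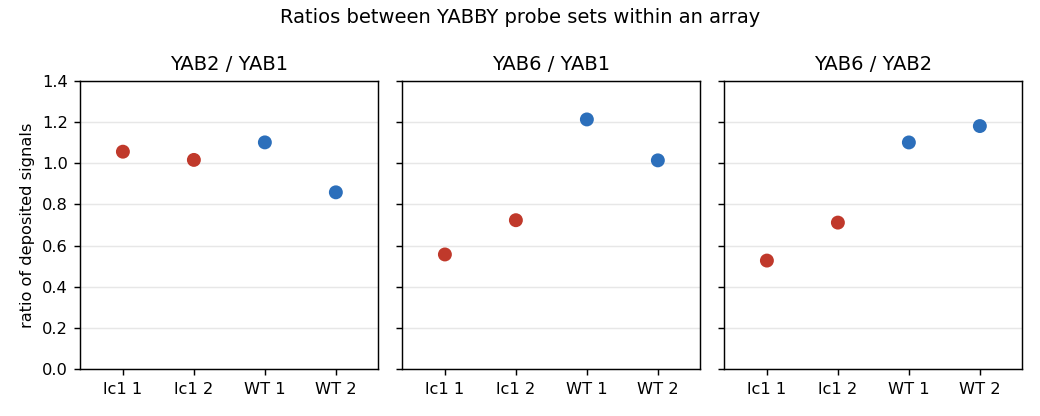
Ratios of deposited signals between the 3 bright YABBY probe sets within each array, for lc1 (red) and the wild type (blue). YAB6 over YAB1 and YAB6 over YAB2 lie at or below 0.723 in lc1 and at or above 1.01 in the wild type, while YAB2 over YAB1 overlaps.

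DL (LOC4332058) was close to background. Its signals were 32.8 and 8.76 in lc1, of which the second lay under the floor, against 16.03 and 23.9 in the wild type, both above it. The lc1 arrays enclosed the wild-type arrays, with a gap of 1.91 log2 units between the lc1 arrays and of 0.58 between the wild-type arrays, where the medians over all tested probe sets were 0.38 and 0.32. The log2 difference of -0.21 ± 0.65 had a 95% interval from -1.68 to 1.27, wide enough to hold more than a doubling either way. Without lc1 array 2 it was 0.75, and without lc1 array 1 it was -1.16. From the highest to the lowest DL signal, the arrays fell in the same order as the Gapdh ratio. None of the other tested YABBY probe sets followed that order, and the part of RNA quality in the DL values was not tested.

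YAB7 (LOC9268430), above the floor on all 4 arrays, had signals of 21.4 and 20.6 in lc1, against 18.2 and 28.0 in the wild type. The lc1 arrays lay between the wild-type arrays, and the log2 difference was -0.10 ± 0.43, with a 95% interval from -1.08 to 0.87. Its sign turned when wild-type array 2 was left out, at 0.20.

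YAB4 and YAB5, the measured genes of the FILAMENTOUS FLOWER class, were not clearly detected. YAB4 (LOC4330130) read 5.25 and 5.14 in lc1, against 5.82 and 13.8 in the wild type, and only wild-type array 2 was above the floor. It passed the filter on dim probe sets, with an adjusted limma p of 0.810, but both lc1 signals are below background and no fold is given. YAB5 (LOC4336518) read 1.00 and 0.604 in lc1 and 0.549 and 0.727 in the wild type, never reaching the floor and below the filter. In RNA from whole tissue, fewer cells that express a gene and less RNA per cell cannot be told apart, which holds for every gene here.

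Across the 6 tested probe sets the median log2 difference was -0.16, against 0.00 over all tested probe sets, and the median size of the difference regardless of sign was 0.30 in both. The genotypes did not overlap for 3 of the 6 (YAB2, YAB4 and YAB6), against 39.7% of all tested probe sets, a share too close to read as a property of the family. For YAB4 only wild-type array 2 was above the floor, so its place among the 3 rests on signals at background. Only the signs of YAB1, YAB2 and YAB6 were the same with any 1 array left out and also under each other setting tried. For YAB6 the difference ran from -0.62 to -0.48 with an array left out, for YAB2 from 0.20 to 0.50, and for YAB1 from 0.09 to 0.42.

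**Figure D4:**
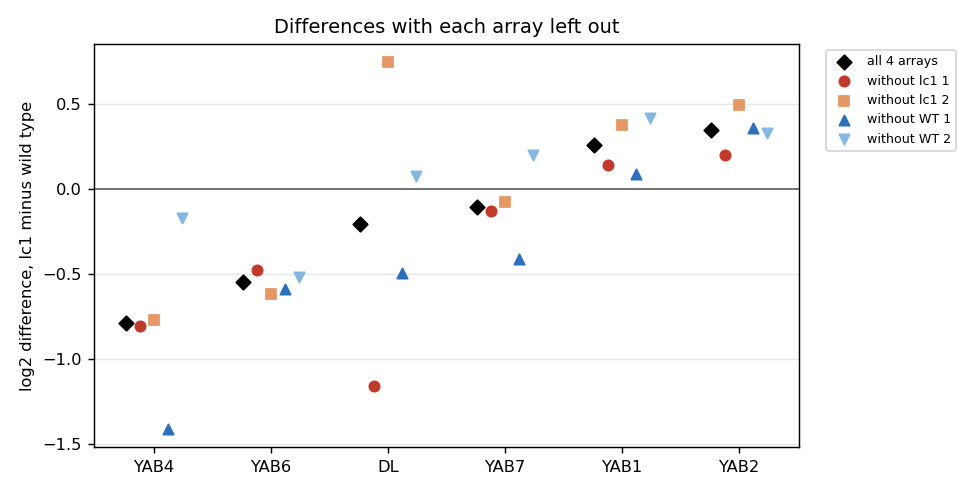
Log2 difference, lc1 minus wild type, of the tested YABBY probe sets with all 4 arrays (black diamonds) and with each array left out in turn. YAB6 stays between -0.62 and -0.48, whereas DL runs from -1.16 to 0.75.

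Other genes of leaf polarity were read from the same fit, each by its brightest probe set. In 6 lists, 25 genes had a probe set and 21 were tested, of which 7 lay above and 14 below the median probe set, with a median log2 difference of -0.27. None passed the adjusted threshold, and 1 had an unadjusted p under 0.05, which is 4.76% of them against 8.03% of all tested probe sets. That gene was HOX9, a class III homeodomain-leucine zipper factor of the kind that specifies the adaxial, or upper, side. HOX9 read 174 and 251 in lc1, against 415 and 399 in the wild type, with both lc1 arrays below both wild-type arrays. Its log2 difference was -0.96 ± 0.27, with an unadjusted limma p of 0.00683 and an adjusted p of 0.395.

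The other class III factors above the floor, HOX10, HOX32 and HOX33, gave log2 differences from -0.36 to -0.28, and HOX29 was under the floor on all 4 arrays. No KANADI gene was matched with a probe set, and the abaxial list held 5 auxin response factors, 4 of them below the median probe set, with differences from -0.34 to 0.15. LOC4325895 and LOC4326957 both matched the name ARF2, and which of them is the abaxial factor was not settled. In the pathway of the small RNAs that limit some auxin response factors, SHL2, an RNA-dependent RNA polymerase, gave -0.47 ± 0.26, DCL4 (SHO1) gave -0.09 ± 0.27 and SGS3 gave -0.02 ± 0.25. NAL1, which affects leaf width, gave -0.28 ± 0.24, and ADL1 and ROC5, which affect leaf rolling, gave -0.27 ± 0.21 and 0.11 ± 0.22. Of 8 KNOX genes and KNOX repressors with a probe set, 5 were tested, with differences from -0.40 to 0.18. LG1, needed for the ligule and the joint itself, read 110 and 137 in lc1, against 145 and 250 in the wild type, a log2 difference of -0.64 ± 0.33 with an adjusted limma p of 0.672.

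**Figure D5:**
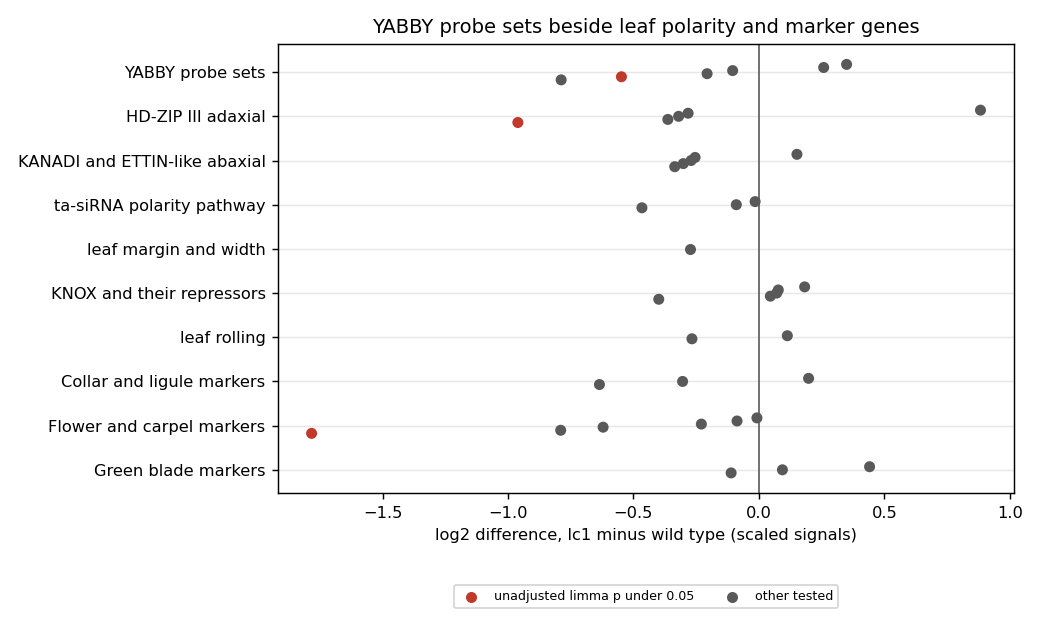
Log2 difference, lc1 minus wild type, of the tested YABBY probe sets and of tested genes in 6 leaf polarity lists and 3 marker lists, 1 point per probe set. Red points (YAB6, HOX9 and MADS2) have an unadjusted limma p under 0.05, and no point passes after adjustment.

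DL and other YABBY genes are also known from flowers, so flower markers were set beside them. Of 10 such genes, 3 were above the floor on all 4 arrays (MADS1, MADS4 and MADS16) and 4 at or under it on all 4 (MADS3, MADS6, MADS7 and MADS13). MADS3 and MADS13, genes of stamens, carpels and ovules, were at most 6.04 and 2.22 on any array, and MADS58 was above the floor on 1 wild-type array. All 6 flower markers tested lay below the median probe set, with a median log2 difference of -0.43, and none passed the adjusted threshold. They were not uniformly lower, since MADS8 gave -0.0079 and MADS16 gave -0.09. MADS8 and MADS58, at -0.62, were each above the floor on only 1 array, so the median rests partly on signals at background. The summed signal of the list was 564 and 651 in lc1, against 906 and 617 in the wild type, and MADS16 made up most of it, at 462 and 431 in lc1 and 478 and 469 in the wild type. MADS2 was the 1 flower marker with an unadjusted p under 0.05, at 15.6 and 9.77 in lc1 and 34.1 and 52.8 in the wild type (limma adjusted p = 0.335). Its signal on lc1 array 2 was under the floor of 13.0, so the difference was read partly against background. The green blade markers RBCS, CAB2R and RCA summed to 15278 and 17505 in lc1, against 14778 and 16657 in the wild type. The part of tissue makeup in the YABBY values was not tested.

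By distance between the 4 scaled log2 values, each taken from its own mean, the probe sets most like YAB6 among 2823 with a gene name other than a locus number belonged to ziga1 (LOC4327594, distance 0.0244), BP-73 (LOC4331846, 0.0744) and SAPK4 (LOC4324934, 0.0779). SAPK4, a protein kinase of the SnRK2 family, read 383 and 395 in lc1, against 557 and 568 in the wild type. The distances rest on 4 arrays and are a description only.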

How the data were processed

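RNA from flag leaf collars of lc1 and of the wild type was measured on 4 arrays, 2 for each genotype. The deposited values are linear intensities, 1 for each probe set on each array, made by the authors with Affymetrix Microarray Suite 5.0, per the series' design text. Detection calls, MAANOVA and a Wilcoxon test of change are also named there. R 1.8.0 is listed in the submitters' processing notes. Of 57381 probe sets, 123 controls were left out. Signals were put on a log2 scale (18 values of 0 set to 0.05). The test covered the 34355 probe sets whose mean log2 signal reached the 40th percentile, equal to a signal of 5.96.

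The arrays were then scaled to a median deviation of 0 from each probe set's mean and fitted with limma 3.58.1 in R 4.3.3 (lmFit, eBayes with trend, a genotype term alone, 2-sided, Benjamini-Hochberg adjustment over all tested probe sets, threshold 0.05). The fit leaves 2 residual degrees of freedom for each probe set. Through eBayes the limma SEs, intervals and p-values also draw on the variance of the other tested probe sets. Before scaling, the median difference was 0.22 on the log2 scale, higher in lc1. The number of arrays limits the precision.

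Genes were named through the platform annotation (22436 probe sets with 1 gene, 95 with several, 34727 with none) and through RefSeq genes of assembly ASM3414082v1, taken only for names and for neighbours, among which all 22436 were found. In the polarity and flower lists, 6 genes that merely share a synonym with a list name (such as hemoglobins listed as HB1) were left out, but both genes matched as ARF2 were kept. Named genes were all members, list genes with an unadjusted p under 0.05, LG1, the GH3.1 check and the 3 probe sets closest to the member of smallest p, and other list genes were picked as examples with their values known. The members, lists and scaling were chosen with earlier results of these data known. Same-numbered arrays of both genotypes did not deviate together (correlation -0.04 over tested probe sets), so the numbers were not taken to pair them. At most 1.64% of signals were identical between any pair of arrays. In all, 16 alternatives were run.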

Additional observations from a re-analysis of the deposited data

How the results depend on the processing

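No YABBY probe set passed limma's adjusted threshold under any of the 16 alternatives. The count over all probe sets, 9 of which 8 were higher in lc1, depended on the setting. It was 1 (1 higher) as deposited, 20 (16 higher) with each array divided by its median, 4 (4 higher) under quantile normalization, 1 with no filter, 26 with a 60th percentile filter, 83 with signals raised to the floor, and 2 (2 higher) with scaling on probe sets between signals of 200 and 600, chosen after seeing the data. It was 0 with no intensity trend in limma and 0 with an ordinary linear model, with 2421 and 1996 at an unadjusted p under 0.05. The replicate block, with the array number as a block, gave 644, of which 0 were YABBY probe sets, on fewer residual degrees of freedom than the main fit. Leaving out 1 array gave from 4 (without wild-type array 1) to 1107 (without lc1 array 2), with 6 without wild-type array 2 and 265 without lc1 array 1. GH3.1 passed in 10 of the 16, among them the replicate block and the fits with 1 array left out. The YABBY median of -0.16 was 0.27 with the 60th percentile filter, where only YAB1, YAB2 and YAB6 were tested, and ran from -0.45 to 0.15 with an array left out. It was 0.066 as deposited, 0.058 with no filter, where 8 probe sets were tested, and 0.050 with signals raised to the floor. The sign of this median was therefore not stable. DL turned to 0.0148 as deposited and 0.0584 with signals raised to the floor, and ran from -1.16 to 0.75 with an array left out. YAB7 turned to 0.12 as deposited and ran from -0.41 to 0.20 with an array left out. YAB4 turned to 0.0425 with signals raised to the floor, a value that is no fold because both lc1 signals were below background. YAB6 ran from -0.62 to -0.33 over the 16. Apart from the change in the probe sets tested, the causes of these shifts were not tested. Signal over background limits DL, YAB4, YAB5 and YAB7.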

Other observations

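In the gene table DL lies between the protein-coding genes LOC4332057 and MADS1 (also Lhs1), a floral homeotic gene. MADS1 read 35.4 and 163 in lc1, against 326 and 52.9 in the wild type, above the floor on all 4 arrays. The 2 arrays with the higher MADS1 signals were those with the lower DL signals, and DL read 32.8 and 8.76 in lc1 and 16.03 and 23.9 in the wild type. The DL signal of 8.76 lay under the floor, and an order over 4 arrays is a description only, which shows no link between the genes. The same arrays, lc1 array 2 and wild-type array 1, had the lower Gapdh ratios of 5′ to 3′ signal, at 0.138 in lc1 and 0.164 in the wild type, against 0.246 on lc1 array 1 and 0.236 on wild-type array 2, and the part of RNA quality in the MADS1 and DL values was not tested. Each gene differed more between arrays of 1 genotype than between the genotype means, and limma gave an adjusted p of 0.831 for MADS1 and 0.950 for DL.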
